A study of Mus musculus with 15 samples.

Results

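The genes described here are 10 markers of Kupffer cells, the resident macrophages of the liver, out of 21755 protein-coding genes: Adgre1, Clec4f, Cd5l, Vsig4, Marco, Timd4, Csf1r, Cd68, Lyz2 and C1qa. They are listed by name, as known markers, and all 10 are in the GENCODE M21 annotation of mm10. H3K4me3, histone H3 carrying 3 methyl groups on lysine 4, was measured in whole livers of 15 female C57BL/6 mice (C57BL/6J in the methods of the study), with 3 mice on each of 5 diets. These were the standard diet ad libitum (SD), caloric restriction (CR, 70% of the calories), a high-fat diet ad libitum (HF, 60% fat), a yellow corn-based diet ad libitum (YD) and a purple corn-based diet ad libitum (RD), which contains anthocyanins that the yellow corn lacks. Feeding began at 3 months of age and lasted 10 months, and the labels give an age of 12 months. All groups shared the strain, the sex, the formalin-fixed, paraffin-embedded liver as the source of chromatin, and the antibody. The animals belonged to 6 litters, and the litter of each mouse was not used here. A library was made from the whole tissue, in which hepatocytes are the main cell type, so a lower share of Kupffer cells and less H3K4me3 per Kupffer cell cannot be told apart.

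Kupffer cells line the sinusoids of the liver, where they take up particles, bacteria, aged red cells and complement-coated material from the blood. They depend on the receptor Csf1r, and their identity genes are controlled by macrophage factors such as PU.1 (encoded by Spi1) together with liver-specific signals. H3K4me3 marks the promoters of active genes, usually over the first nucleosomes downstream of the TSS. In a bulk library a promoter that is active only in a minor cell type contributes a small part of the chromatin, and it is called as an enriched region (an island of SICER2, the peak caller of the study) only when that part exceeds the background of the library.

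The 15 lists held 7825 to 33752 islands, from 5589269 to 15449854 reads as recovered from the scores, and marked 17.5% to 54.6% of the protein-coding genes. The HF_1 library stood apart in what follows. It had 21280 islands and 9749186 reads, both inside the range of the other 14 libraries, and it marked 54.6% of the coding genes, against 17.5% to 51.5% in the others. It is also the only HF library whose file name has the ChIP form, HF_2 and HF_3 having the PATChIP form. In the other diets CR_1, CR_2 and RD_1 have the PATChIP form, and all SD and YD libraries the ChIP form. The name form is thus unevenly spread over the diets. Because HF_1 stood apart, the numbers of marked markers and the gains in HF are also given without HF_1. The liver origin of the chromatin was checked with 14 matched hepatocyte genes, of which 14 were marked in HF_1 and 8 to 13 in the other libraries. Apob, which carries lipid out of hepatocytes, and Ass1, a urea cycle enzyme, were marked in 15 of 15 libraries.

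The upstream sequences of 5 markers are shown because they cover every outcome seen: Clec4f and Cd68 were marked in 2 libraries each, Cd5l in 1, and Marco and Vsig4 in none. Each runs 5′ to 3′ on the strand of the gene and ends at or just before its most upstream annotated TSS (RefSeq, GRCm38.p6). Capitals mark GAGGAA, the core of the site bound by PU.1, or its reverse complement. The windows are chr6:83656188-83656366 for Clec4f (minus strand), chr11:69666171-69666420 for Cd68 (minus), chr3:87357631-87357880 for Cd5l (plus), chr1:120505025-120505274 for Marco (minus) and chrX:96293439-96293688 for Vsig4 (minus).
Clec4f: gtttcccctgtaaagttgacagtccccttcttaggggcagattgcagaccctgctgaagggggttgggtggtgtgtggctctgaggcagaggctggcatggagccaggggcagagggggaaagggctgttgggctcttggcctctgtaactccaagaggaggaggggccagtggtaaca
Cd68: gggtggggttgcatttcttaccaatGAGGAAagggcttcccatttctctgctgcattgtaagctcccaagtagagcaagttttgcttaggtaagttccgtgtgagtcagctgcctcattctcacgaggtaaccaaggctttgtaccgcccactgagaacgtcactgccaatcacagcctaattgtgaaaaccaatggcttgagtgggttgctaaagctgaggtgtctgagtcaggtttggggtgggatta
Cd5l: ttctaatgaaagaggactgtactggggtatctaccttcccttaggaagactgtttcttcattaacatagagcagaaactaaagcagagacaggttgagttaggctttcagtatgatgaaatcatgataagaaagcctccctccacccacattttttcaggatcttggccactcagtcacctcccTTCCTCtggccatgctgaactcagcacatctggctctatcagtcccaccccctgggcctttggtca
Marco: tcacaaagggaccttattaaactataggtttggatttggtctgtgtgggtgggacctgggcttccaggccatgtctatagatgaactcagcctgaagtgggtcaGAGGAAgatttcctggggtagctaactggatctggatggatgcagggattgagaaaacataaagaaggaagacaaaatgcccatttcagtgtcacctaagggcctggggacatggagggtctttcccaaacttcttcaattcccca
Vsig4: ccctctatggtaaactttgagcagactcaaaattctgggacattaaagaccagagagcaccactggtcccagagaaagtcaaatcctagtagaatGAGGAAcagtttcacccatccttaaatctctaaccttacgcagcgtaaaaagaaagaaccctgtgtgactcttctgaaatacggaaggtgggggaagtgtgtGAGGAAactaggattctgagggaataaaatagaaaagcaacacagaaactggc
GAGGAA was searched on both strands in the 250 bases before the RefSeq start. It was found in 4 of the 7 markers with a RefSeq window (Cd5l, Vsig4, Marco and Cd68) and in 24.9% of 17492 coding genes. Marked and unmarked genes are found on both sides: Cd68 and Cd5l held 1 match and had islands, Marco held 1 and Vsig4 2 without an island, and Clec4f held none in the stretch shown. The MAF half-site TGCTGA was found in Clec4f, Cd5l, Timd4 and Lyz2, and in 2979 of the 17492 coding genes. The AP-1 motif TGANTCA was found in Cd68 and in 7.19% of the coding genes, and the C/EBP motif also in Cd68 and in 10.5%. TATAAA was found in none of the 7 and in 13.7% of the coding genes, and a spaced LXR direct repeat in none of either. A match is a description of the letters in this window and not of a bound site.

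The RefSeq windows of these 7 markers were poor in CpG dinucleotides. The 300 bp from 250 bases before the start to 50 after it held 0 CpG in Clec4f, Cd5l and Marco, 1 in Lyz2, 3 in Vsig4, 4 in Cd68 and 5 in Timd4. Of the coding genes in the table, 30.9% have no more than Timd4. With 7 of 10 markers matched, a check of CpG content over the whole set is void, so only single genes are given. Among the 4701 coding genes with 0 to 5 CpG, 14.7% were marked in HF_1 and 4.02% to 13.8% in the other libraries, a range whose top is CR_3, a library without an island at any of the 10 markers.

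**Figure D1:**
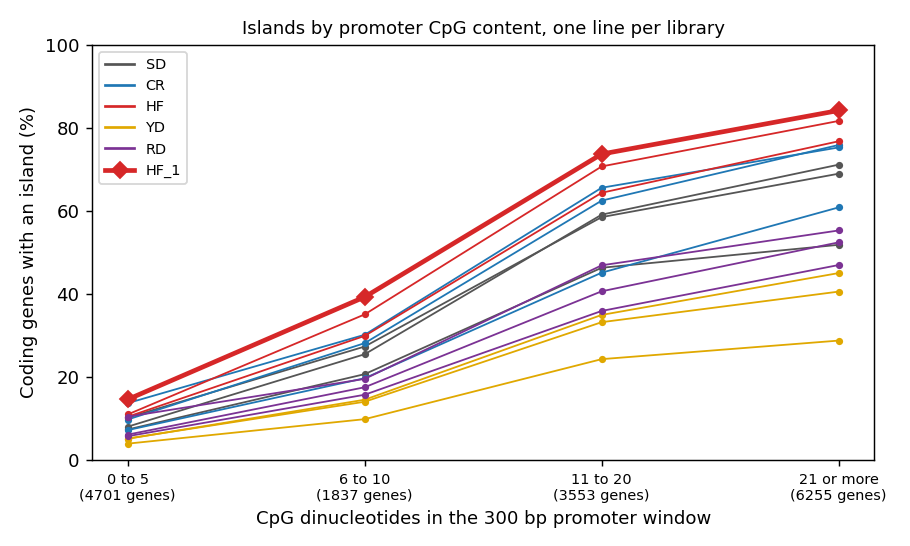
Share of coding genes with an island (vertical axis, percent) by the number of CpG dinucleotides in the 300 bp RefSeq promoter window (horizontal axis, 4 classes with their gene numbers). Each line is a library coloured by diet, and HF_1 is drawn thick with diamonds. In every library the share rises with CpG content, and HF_1 lies highest in each class, at 14.7% among genes with 0 to 5 CpG and 84.2% among those with 21 or more.

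Of the 150 combinations of a marker with a library, 8 had an island within 1 kb of a TSS. The numbers of markers with an island were 6, 0 and 1 in HF_1, HF_2 and HF_3, and 0, 0 and 1 in YD_1, YD_2 and YD_3. No marker had an island in any of the 3 SD, 3 CR or 3 RD libraries. Thus 6 of the 8 islands came from a single library, and without HF_1 the remaining 14 libraries held 1 island at Clec4f and 1 at Cd68.

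**Figure D2:**
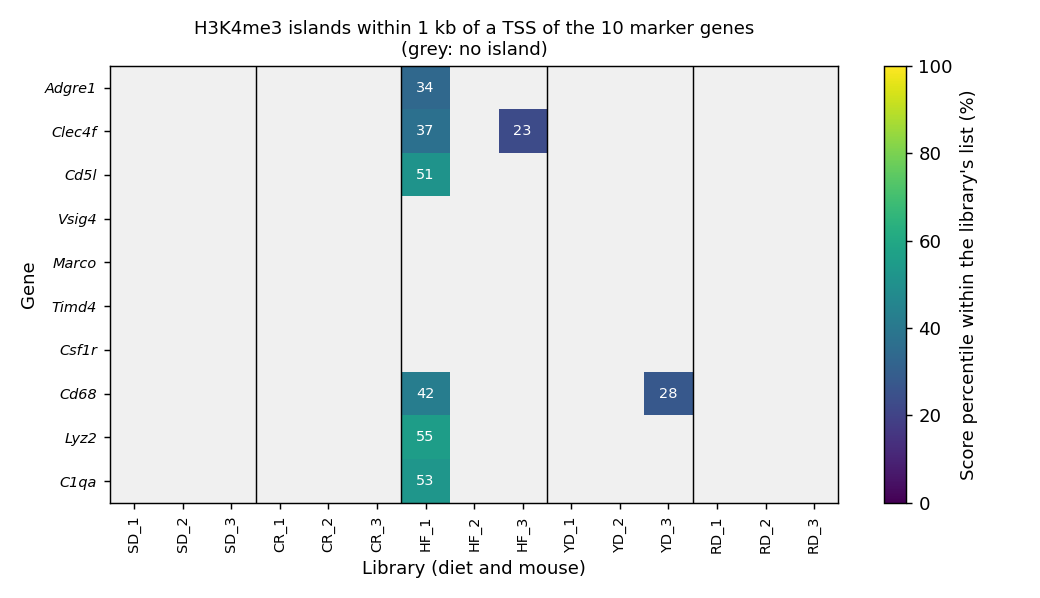
Islands within 1 kb of a TSS of the 10 markers (rows) in the 15 libraries (columns, 3 mice per diet). Colour and number give the percentile of the island's score within its own list, and grey means no island. The 8 islands sit in HF_1 (6), HF_3 (1) and YD_3 (1), at percentiles from 23 to 55.

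Among surface receptors, Clec4f was marked in 2 libraries. Clec4f is a C-type lectin made almost only by Kupffer cells in mice (chr6:83644542-83656187, minus strand). Its island was 1800 bp wide in HF_1, where it covered both annotated TSSs, and 3000 bp wide in HF_3, where it began 721 bp from the nearer TSS. HF_2 and the 12 libraries of the other diets had none. The islands ranked 13386 of 21280 in HF_1 and 10392 of 13499 in HF_3, at score percentiles of 37.1 and 23.0. HF_1 had a further island of 1400 bp inside the gene, 4921 bp from a TSS. Clec4f was thus found in 2 of 3 HF mice and in no other mouse, and it was the only marker gained against SD, a class that held 8.15% of the 12525 coding genes marked in either diet. With HF_1 left out and both other HF mice required, 3.48% of 11950 genes were gained and Clec4f was not among them. With HF_3 left out 4.04% of 12286 were gained, again without Clec4f. With HF_2 left out 7.26% of 12430 were gained, Clec4f among them. Both remaining HF mice were required each time, so the outcome for Clec4f followed from its 2 marked mice. Its mean width was 1600 bp ± 1510 (SD, n = 3) in HF and 0 bp in the other 12 mice, a difference of 1600 bp (two-sided exact permutation p = 0.0286, Benjamini-Hochberg adjusted p = 0.114 over 13044 genes). The difference did not pass the adjusted threshold. Clec4f entered the test only through HF_1 and HF_3, so its p restates which mice were marked, whatever the widths. Without HF_1 the width difference was 1500 bp with 1 of 2 HF mice marked, and without HF_3 it was 900 bp. Without HF_2 it was 2400 bp.

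Adgre1 encodes F4/80, the classical surface marker of mouse macrophages (chr17:57358691-57483527, plus strand). Its only promoter island was in HF_1, 1000 bp wide, beginning 87 bp downstream of the nearest TSS, at rank 14110 and percentile 33.7. The gene is long, and 5 islands lay inside it or over its end far from the TSSs: 1 in SD_1, 1 in CR_1, 2 in CR_3 and 1 in HF_2, at 24487 to 123887 bp from the nearest TSS and at percentiles from 0.488 to 45.8. No position was shared between libraries.

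The scavenger receptors Marco and Cd5l differed in outcome. Marco, which binds bacteria and particles (chr1:120474538-120505024, minus strand), had no island in any library, and the nearest island lay 63.6 to 385 kb from its TSSs. Cd5l, a secreted protein of the same domain family that tissue macrophages release (chr3:87357881-87371073, plus strand), had an island in HF_1 alone. It was 2800 bp wide, lay 520 bp downstream of the TSS and had rank 10370, at percentile 51.3. In the other 14 libraries Cd5l had none.

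Vsig4, the complement receptor CRIg that captures opsonised bacteria (chrX:96247203-96293438, minus strand), had no island within 1 kb of a TSS. SD_1 had an island of 800 bp 3212 bp from the nearer TSS and YD_3 one of 1000 bp at 20212 bp, the first at rank 18713 of 23107 and the second at percentile 12.3. Timd4, the phosphatidylserine receptor by which resident Kupffer cells bind dying cells (chr11:46810800-46844332, plus strand), had no island in any library, and its nearest island lay 78.4 to 373 kb away. Csf1r, the receptor for the growth factor that macrophages need (chr18:61100598-61132149, plus strand), also had none, with the nearest island 53.0 to 294 kb from its 6 annotated TSSs. Marco, Timd4 and Csf1r therefore had no island anywhere in the gene, in 15 of 15 libraries.

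Cd68 was the other marker with an island in 2 libraries, which belonged to different diets. Cd68 is a glycoprotein of macrophage lysosomes (chr11:69664213-69666153, minus strand). Its island was 1800 bp wide in HF_1, at rank 12282 and percentile 42.3, and 1000 bp wide in YD_3, at rank 7889 of 10906 and percentile 27.7. Both began 62 bp downstream of the nearer TSS. Cd68 lies between a pair of widely expressed genes, which allows a comparison within the locus. Eif4a1, a translation initiation factor whose nearest TSS is 1910 bp away, was marked in 15 of 15 libraries at percentiles from 58.5 to 98.1. Mpdu1, an enzyme factor of glycosylation on the other side, was marked in 7 libraries at percentiles from 7.49 to 69.8. An island of HF_3 that reached from the Mpdu1 promoter into the last part of Cd68 stopped 1262 bp short of the nearer Cd68 TSS and was not counted. The Eif4a1 promoter was therefore marked in each of the 13 libraries without an island at Cd68.

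Lyz2, lysozyme of the myeloid lineage (chr10:117277331-117282321, minus strand), had an island of 2200 bp over its TSS in HF_1, at rank 9477 and percentile 55.5, the highest percentile among the 8 islands. It had none in the other 14 libraries. Its neighbour and near-identical copy Lyz1, whose TSS is 10547 bp away, was marked in none, and reads that match both copies cannot be assigned to either with certainty.

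C1qa encodes a chain of C1q, the first component of complement, which macrophages produce (chr4:136895917-136898803, minus strand). Its island in HF_1 was 1800 bp wide, began 203 bp downstream of the TSS and had rank 10074, at percentile 52.7. C1qb and C1qc, the genes of the other C1q chains beside it, were marked in HF_1 as well, by islands of 3400 and 2400 bp at percentiles of 48.4 and 53.2, and in no other library. The 3 islands were separate regions.

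The 8 islands resembled each other in position. Their widths ranged from 1000 to 3000 bp, and each extended into the gene: 6 lay wholly downstream of the TSSs, and those of Clec4f and Lyz2 in HF_1 covered a TSS but reached only 13 and 79 bp upstream of it. Among all coding genes marked in HF_1, 89.9% had a TSS inside the island, 8.37% had the island wholly downstream and 1.72% wholly upstream. In the 15 libraries the share with an island wholly downstream ranged from 4.97% to 28.6%, the highest being YD_3. The islands of the markers scored below the median of all marked coding genes of their library, and those in HF_1 above the median of genes marked there alone. In HF_1 their percentiles ranged from 33.7 to 55.5, against a median of 74.7 over all marked coding genes, 29.8 over the 406 coding genes marked in HF_1 alone and 93.8 over the 2059 genes marked in all 15 libraries.

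**Figure D3:**
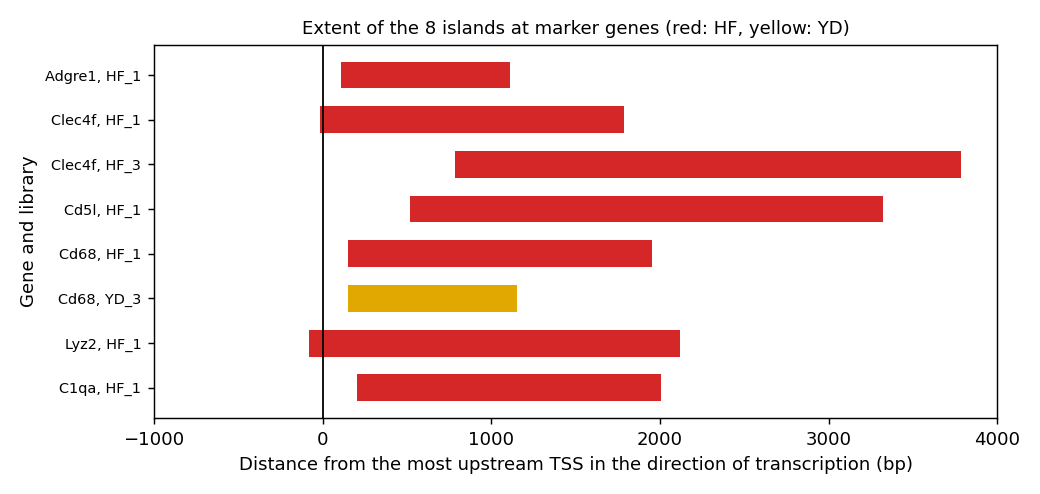
Extent of the 8 islands at marker genes (bars, 1 per gene and library) along the distance from the most upstream TSS in the direction of transcription (horizontal axis, bp; the vertical line is the TSS). Red bars are HF and the yellow bar is YD. The islands lie within the first 4000 bp of the gene, and only those of Clec4f and Lyz2 in HF_1 cross the line.

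The comparisons with SD ask which diet changes the mark, and that of RD with YD asks for the effect of the anthocyanins. The mean number of marked markers was 2.33 ± 3.21 in HF, 0.333 ± 0.577 in YD and 0 in SD, CR and RD (SD, n = 3 each). HF exceeded SD by 2.33 markers, or by 0.5 without HF_1, with HF_2 not differing from the SD mice. YD exceeded SD by 0.333, which came from Cd68 in YD_3. CR and RD did not differ from SD in the number of markers marked, and RD was 0.333 below YD. No p is given for these sums. Against the other 12 mice, 0 of the 6 markers with an island in any library passed an adjusted p of 0.05 for width in any diet by the exact permutation test, as did 0% of the 13044 coding genes tested in each diet. The smallest adjusted p of any gene was 0.0706, in HF. At the smallest possible exact permutation p of 3 mice against 12 (0.0022), 574 genes were needed for an adjusted p under 0.05. HF had the most genes at that p, 406. A marker with islands in 1 or 2 libraries could not reach it, so 0 markers called does not show that no width changed. At an unadjusted p under 0.05, 1 marker (Clec4f, in HF) passed, beside 32.6% of all tested coding genes in HF (32.6% wider in HF). The shares of all tested coding genes at that level were 0.828% in SD (0.736% wider), 3.79% in CR (3.77% wider), 16.1% in YD (0.0153% wider) and 2.49% in RD (0.169% wider), with 0 markers in these 4 diets. These shares moved when some single libraries were left out. Leaving out a mouse of the tested diet also makes the test 2 against 12, with a smallest possible exact permutation p of 0.011. HF fell to 14.6% without HF_1 and to 17.1% without HF_3, in both cases with 0 markers. Without HF_2 it was 33.8%, with 1 marker. YD fell to 8.15% without YD_2 and to 5.48% without YD_3, and was 14.8% without YD_1. CR fell to 2.11% without CR_2 and to 1.90% without CR_3. It was 4.90% without CR_1 and 6.99% without HF_1. RD was 1.02% without RD_1, 2.83% without RD_2, 0.898% without RD_3, 4.36% without YD_2 and 6.15% without YD_3. SD was 1.69% without HF_1 and 1.35% without HF_3. The 5 markers with an island other than Clec4f had p = 0.2 in HF by the same exact permutation test, with adjusted p = 0.305. Adgre1, Cd5l, Lyz2 and C1qa entered the test only through HF_1. Their p is fixed by that single marked library, whatever the width of its island. Vsig4, Marco, Timd4 and Csf1r had no value to test.

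Of the 10 markers, 5 had islands in HF libraries and in no library of another diet (Adgre1, Clec4f, Cd5l, Lyz2 and C1qa), as did 4.79% of all coding genes. Of these, 4 were marked in HF_1 alone, as were 1.87% of all coding genes. The 4 markers marked in no library stand beside 40.0% of the coding genes with none. In HF_1 itself, 6 of 10 markers (60%) and 54.6% of all coding genes were marked, while in each of the other 14 libraries 0 or 1 of 10 markers and 17.5% to 51.5% of coding genes were.

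The other genes of the macrophage lineage were read in the same way. Of 28 further macrophage genes, 20 were marked in HF_1, 8 in HF_2 and 11 in HF_3. In the other diets 6, 7 and 6 were marked in the SD libraries, 6, 7 and 6 in CR, 4, 4 and 2 in YD, and 3, 8 and 4 in RD. The 3 HF libraries had the 3 highest numbers, HF_2 level with RD_2 at 8. HF_1 and HF_3 also had the 2 highest shares of all coding genes marked, and HF_2 the fourth. The shares of all coding genes marked were 54.6%, 47.6% and 51.5% in HF, 43.1%, 43.0% and 32.7% in SD, 35.5%, 46.5% and 48.2% in CR, 24.3%, 26.5% and 17.5% in YD, and 31.2%, 34.7% and 27.8% in RD. Of the 28, 11 were marked in HF libraries only, beside 4.79% of all coding genes. Of these, 8 were marked in HF_1 only, beside 1.87% of all coding genes. They were C1qb, C1qc, the haemoglobin receptor Cd163, the metal transporter Slc11a1 and the receptor kinase Axl. The others were the Fc receptor Fcgr1, the oxidase subunit Cybb and Aif1. Mertk, which mediates uptake of dying cells, was marked in 15 of 15 libraries at percentiles from 37.0 to 94.0, and Hpgd, which breaks down prostaglandins, in 14 at 56.1 to 96.1. Cd207 and Cx3cr1 were among 7 genes of the list marked in none, beside 40.0% of all coding genes.

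Against SD, 3 of the 21 macrophage genes marked in either diet were gained in HF and none was lost, beside 8.15% gained and 0.128% lost over all coding genes. They were Fcer1g and Tyrobp, which encode signalling adaptors of Fc and other immune receptors, and Laptm5, a lysosomal membrane protein, and they are named after their values were seen. Tyrobp was 1200 bp wide in HF_1 and 1600 bp in HF_3, at percentiles of 25.6 and 23.0, and Laptm5 was 2800 and 3000 bp wide in the same libraries, at 65.7 and 39.0. Fcer1g was marked in HF_1, HF_2 and CR_2, at percentiles of 58.7, 11.6 and 14.9. Without HF_1, each of the 3 was marked in 1 of 2 HF libraries. In CR and RD no gene of this list was gained or lost against SD, beside 3.33% and 0.434% gained and 0.625% and 7.7% lost over all coding genes. In YD, Tlr4, the endotoxin receptor, was lost, with islands in 2 of 3 SD and 0 of 3 YD libraries, beside 19.1% lost and 0.0744% gained over all coding genes. For RD against YD, Ptprc, which encodes the leukocyte antigen CD45, was gained (2 of 3 RD and 0 of 3 YD libraries), beside 8.65% gained and 0.553% lost over all coding genes.

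The transcription factors of the lineage were marked far more widely than the 10 markers. Of 12 factors, 11, 9 and 10 were marked in the HF libraries, 7 or 8 in SD, 8 to 10 in CR, 6 to 8 in YD and 5 to 8 in RD. Cebpa and Id3 were marked in 15 of 15 libraries, at percentiles from 30.1 to 99.0 and from 79.6 to 99.2, as were Maf and Nr1h3, which encodes the oxysterol receptor LXRα. Several of these factors are also known in hepatocytes, Cebpa above all, so their islands do not mark macrophages alone. Spi1, whose expression is restricted to blood cells, was marked in CR_1, HF_1, HF_3 and YD_2, at percentiles of 27.4, 50.5, 23.9 and 13.9. Against SD, Spi1 and Runx1 were gained in HF, 2 of the 11 factors marked in either diet, beside 8.15% of all coding genes. Without HF_1, Runx1 was in both remaining HF libraries and Spi1 in 1 of 2, beside 3.48% of all coding genes gained. Runx1 was also gained in CR, beside 3.33% of all coding genes, and Irf8, a factor of myeloid development, was lost in YD, beside 19.1%. Spic, which controls iron handling in red pulp macrophages and Kupffer cells, was marked in none. Runx1, a factor of blood cell development, was the only listed macrophage gene with islands in 3 of 3 HF and 0 of 3 SD libraries. The share of all coding genes with that pattern was not counted. Its islands were 2800, 1600 and 2200 bp wide in HF_1, HF_2 and HF_3, at percentiles of 62.2, 14.1 and 60.4. It was also marked in CR_2 and CR_3, at percentiles of 2.81 and 16.2.

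**Figure D4:**
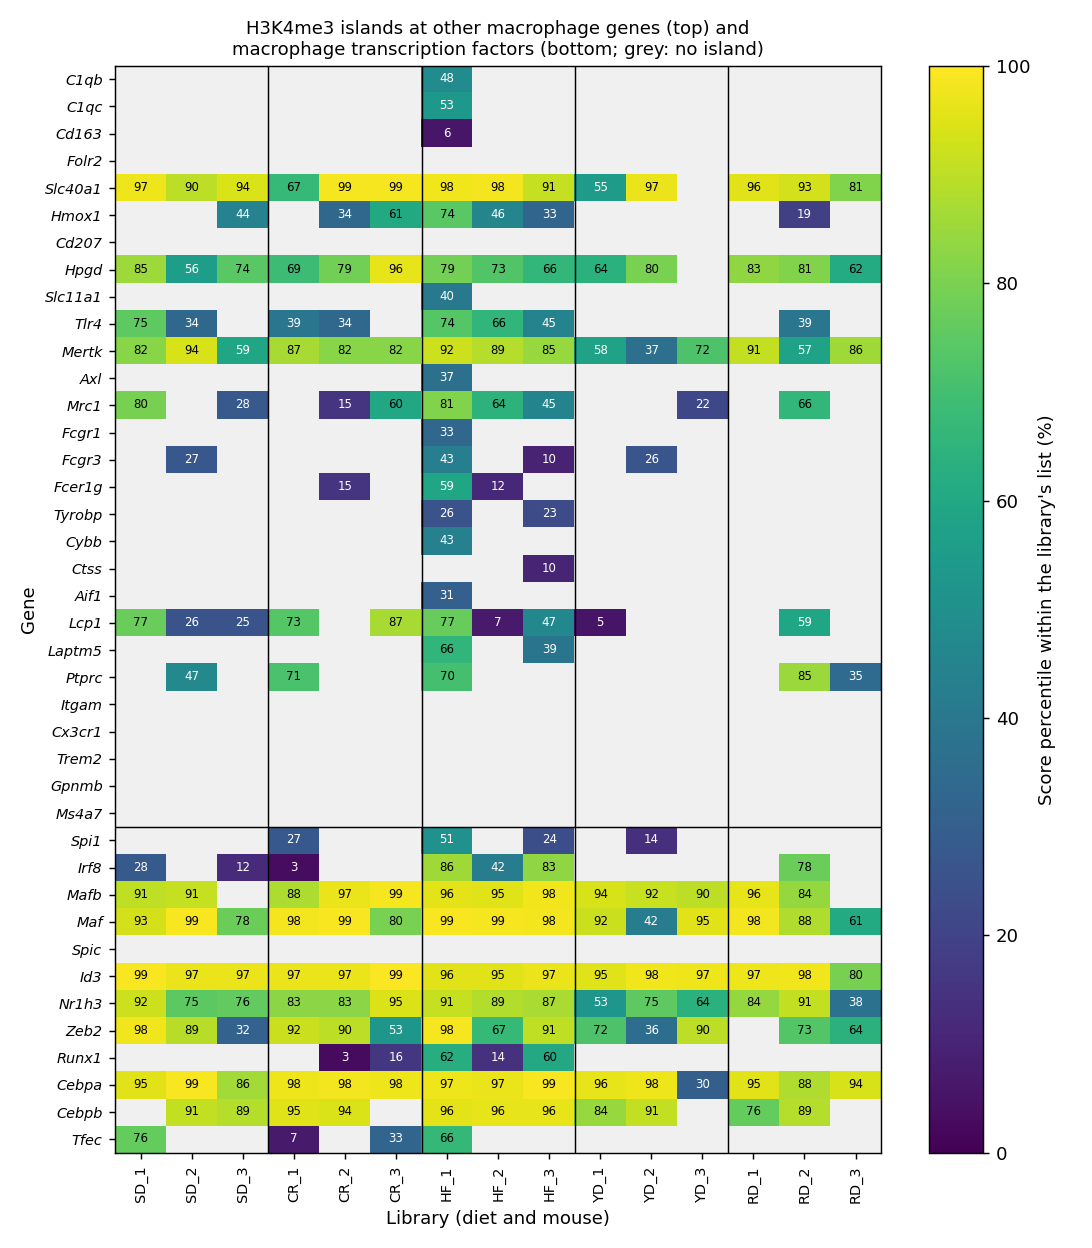
Islands at 28 other macrophage genes (upper block) and 12 transcription factors of the macrophage lineage (lower block) in the 15 libraries. Colour and number give the score percentile within the library's list and grey means no island. Genes such as C1qb, Cybb and Aif1 are coloured in HF_1 alone, while Mertk, Maf, Id3, Nr1h3 and Cebpa are coloured in every column.

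Genes for 6 ligands that act on Kupffer cells were read in the same way. Lists from whole tissue do not show which cells carry an island. Csf1, a ligand of Csf1r, was marked in 11 libraries, 2 of SD, 3 of CR, 3 of HF, 2 of YD and 1 of RD, at percentiles from 4.43 to 90.1. Tgfb1 was marked in 14. Il34, the other ligand of Csf1r, and Gdf2 were marked in none.

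Sinusoidal endothelial and stellate cell markers were counted in the same way. All coding genes were marked at 54.6%, 47.6% and 51.5% in HF_1, HF_2 and HF_3, and at 17.5% to 48.2% in the other diets. Of 10 sinusoidal endothelial genes, 10 were marked in HF_1, 4 in HF_2 and 7 in HF_3, with 7, 1 and 4 in SD, 3, 3 and 4 in CR, 1, 0 and 0 in YD, and 1 in each RD library. SD_1, with 7 of these genes marked, had no island at a Kupffer marker. Lyve1 and Fcgr2b were each marked in HF_1 and HF_3 only, Clec4g in 7 libraries and the endothelial receptor component Eng in 11. Of 10 stellate cell genes, 6 were marked in HF_1, 2 in HF_2, 4 in HF_3 and 0 to 2 elsewhere. Hgf was marked in 8 libraries, Dcn in 3, and Ecm1 and Rgs5 in none. Pdgfrb, a growth factor receptor of stellate cells, had an island of 2000 bp in HF_1 alone. Over all coding genes, 4.79% were marked in HF libraries only and 1.87% in HF_1 alone.

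Few markers of cells that enter the liver from the blood, or of bile ducts, had an island in any library. The 2 marked blood cell genes were marked in HF_1 alone. Over all coding genes, 40.0% were marked in no library and 1.87% in HF_1 alone. Of 10 monocyte and neutrophil genes, 1 was marked in HF_1, the monocyte receptor Ccr2 at percentile 9.72, and none in the other 14 libraries, with S100a8, S100a9, Csf3r and Cxcr2 among the 9 at 0. Of 12 lymphocyte genes, only Cd79b was marked, in HF_1 at percentile 3.83, with Cd3e and Cd2 among the 11 at 0. Of 6 bile duct genes, Sox9 was marked in 5 libraries and Krt7 in 1, and Krt19, Epcam, Cftr and Spp1 in none. The hepatocyte genes numbered 14 of 14 in HF_1, 13 in HF_2 and 13 in HF_3, and 8 to 13 in the other diets, F9 being marked in 2 libraries and Alb in 8. Pck1, an enzyme of glucose synthesis, was marked in 3 of 3 SD and 0 of 3 RD libraries. Of the coding genes marked in either diet, 7.7% were lost in RD, a class that needs at least 2 of 3 SD mice. The part that the number of marked genes per library, the form of the library name or the share of non-parenchymal cells has in the islands at Kupffer markers was not tested.

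**Figure D5:**
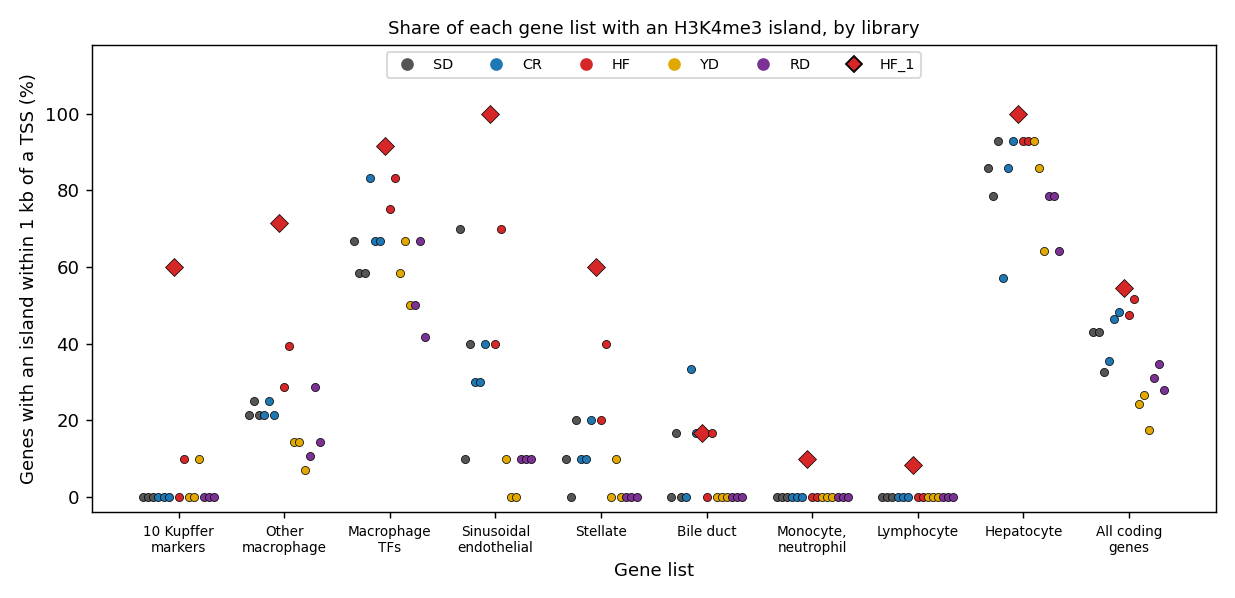
Share of the genes of each list with an island within 1 kb of a TSS (vertical axis, percent), with 1 point per library coloured by diet and HF_1 as a diamond. HF_1 lies at 60% for the 10 Kupffer markers, where no other library exceeds 10%. It lies at 100% for the sinusoidal endothelial list, where the next highest libraries reach 70%. For all coding genes, the last column, it lies at 54.6% and the other libraries at 17.5% to 51.5%.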

How the data were processed

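H3K4me3 was profiled by PAT-ChIP-seq in 15 livers, with 1 library per mouse. The authors aligned 50 bp single reads to mm10 with bwa, filtered them with samtools and called islands in each library with SICER2 (window 200 bp, gap 400 bp). Versions are not given in the sources used here, and neither is whether the stated FDR filter was applied to the deposited lists. Each deposited list gives the position and score of its islands. The score, as the authors deposited it, adds up window by window how unlikely the reads are under a Poisson background. It is not scaled between libraries and was used as a rank or percentile within a list.

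Diets and replicate numbers came from the labels. A gene was counted as marked when an island lay within 1 kb of any of its TSSs in GENCODE M21 (21755 protein-coding genes on chromosomes 1 to 19 and X), and its highest-scoring island was used. For each gene, mean island width (0 bp without an island) was compared between the 3 mice of a diet and the other 12 by a two-sided exact permutation test over 455 assignments, with Benjamini-Hochberg adjustment over the 13044 genes marked in at least 1 library. Against SD, and for RD against YD, a gene was gained or lost when at least 2 of 3 mice of a diet and none of the other had an island, since 3 mice against 3 cannot give an exact p under 0.1. The number of reads used for a list was derived from the score steps of single-window islands, with an effective genome fraction of 0.74. The depth behind a single island is unknown, so errors are those between mice. Calculations were run with scipy 1.17.1, pandas 2.3.3 and numpy 2.4.6 under Python 3.11.15, figures were drawn with matplotlib 3.10.9, and the tests were checked on simulated data.

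The 10 genes and the other gene lists were chosen with earlier results of these data known. Named genes were all 10 markers, the 2 genes of every other list marked in the most libraries and the 2 marked in the fewest (ties by alphabet), and listed genes marked in all 3 mice of a diet and in no mouse of the compared diet. A gene named by this rule is not reported here. Other genes named in the text were chosen after their values were seen. Genes most like a marker were to be named for markers with islands in 3 to 14 libraries, and none had that many. The alternatives were other island filters, TSS distances and measures, a replicate block, the form of the library name and the omission of each mouse. Promoter sequences are from RefSeq (GRCm38.p6, the same assembly as mm10). They were found for 7 of the 10 genes. Read counts and gene expression were not analysed here.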

Additional observations from a re-analysis of the deposited data

How the results depend on the processing

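CR minus SD and RD minus SD in the mean number of marked Kupffer genes went from 0 to -0.333 with TSSs within 3 kb. There the Eif4a1 island of SD_3, which lies 2648 bp from Cd68, was counted for Cd68. The Mpdu1 islands of HF_2, HF_3 and YD_2 were counted for Cd68 as well. In HF_1 the Mpdu1 island of 2400 bp, which scored higher, took the place of the 1800 bp island at Cd68. HF minus SD was 6 when only libraries named ChIP were used, so that HF_1 alone stood for HF, and 0 with the same number of highest-scoring islands from every list (7825), a rank that none of the 8 islands reached. When low-scoring islands, below their list's median, were dropped, 3 of the 8 remained, with a TSS inside the island 2, and with islands of at least 600 bp 8. Leaving out 1 mouse in turn gave 0 to 0 for CR minus SD and RD minus SD, 0.5 to 3.5 for HF minus SD, 0 to 0.5 for YD minus SD and -0.5 to 0 for RD minus YD. The number of markers called by width was 0 in each diet under every alternative, as was that of all coding genes, so it says nothing about stability. The number of single width tests at an unadjusted p under 0.05 was 1, with 0 to 1 without 1 mouse (0 without HF_1 or HF_3). It was 0 for the highest-scoring islands, islands above the median score, TSSs inside the island and libraries named ChIP. Within 3 kb, where islands of Eif4a1 or Mpdu1 were counted at Cd68, it was 2. The highest-scoring islands left no marker island to test, and with libraries named ChIP the smallest possible p in HF was 0.1. For Cd68 the width difference of HF from the other diets ranged from -83.3 bp (without HF_1) to 817 bp without 1 mouse, and that of YD from -150 bp (without YD_3) to 350 bp, with -50 bp within 3 kb. The replicate block, in which labels were permuted among mice with the same number, gave the same differences (2.33 for HF minus SD) and changed no call, with p = 0.04 for Clec4f in HF (exact permutation test, Benjamini-Hochberg adjusted p = 0.143). The deviations of mice with the same number had r from -0.0568 to 0.0752 over 30 pairs. Those of mice with different numbers had r from -0.0834 to 0.0819 over 60 pairs. Whether mice of the same number shared a batch or a litter was not tested. Height at an island, and enrichment below the threshold of the caller, could not be read from these lists, so a marker without an island is not shown to lack H3K4me3.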
